A study of Mus musculus with 12 samples.

Results

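The 6 genes described here, *Foxp3*, *Ikzf2*, *Ikzf4*, *Lrrc32*, *Nt5e* and *Entpd1*, encode regulators and surface proteins that are characteristic of regulatory T cells, and were taken by gene name from 24439 gene names measured in 12 RNA-Seq libraries. All 6 were among the 12442 genes that exceeded 1 TPM (reads corrected for transcript length and expressed per 1000000) in at least 1 library and were tested. The libraries came from splenic CD4 T cells of C57BL/6 C42 mice, a strain that carries a transgene of the human IL3 and CSF2 locus, purified with CD4 microbeads, activated with the lectin ConA at 2 µg/ml for 40 h and then grown as T-blast cells (TB) in IL-2 at 50 U/ml. Cultures kept in IL-2 (TB IL-2) were compared with cultures from which IL-2 was withdrawn for 16 h (TB IL-2nil). Each kind was also measured after stimulation for 2 h with phorbol ester and calcium ionophore (PMA/I), giving TB+ IL-2 and TB+ IL-2nil. There were 3 libraries per group. The labels describe no sort for or against regulatory T cells among the CD4 T cells. The study asked which genes depend on IL-2 signaling before and after reactivation.

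Regulatory T cells restrain immune responses, and IL-2 is the cytokine on which they depend most, because they carry the high-affinity IL-2 receptor and make little IL-2 themselves. *Foxp3* encodes their lineage-defining transcription factor, and *Ikzf2* and *Ikzf4* encode Helios and Eos, zinc finger proteins of the IKAROS family that are found with it. *Lrrc32* encodes GARP, which holds latent TGF-beta on the cell surface, while *Entpd1* and *Nt5e* encode CD39 and CD73, the surface enzymes that in turn convert extracellular ATP to AMP and AMP to adenosine. Several of these genes are also switched on in activated conventional T cells.

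The libraries labelled TB IL-2nil replicate 3 and TB+ IL-2 replicate 3 go against their labels and were placed in each other's group. *Il2*, the cytokine gene induced by PMA/I, was at 1368 FPKM in the library labelled TB IL-2nil replicate 3 and at 0.290 FPKM in the library labelled TB+ IL-2 replicate 3. The other TB+ libraries had 1095 to 2374 FPKM and the other TB libraries 0 to 1.18 FPKM. The study's own list of regulated genes, which gives a value per library, holds the values of each of these libraries under the other label. The results below therefore rest on this placement, and for the 6 genes the main differences are also given with the groups as labelled, without both libraries, or both. The relative depth, read from the steps between low values, ranged from 0.409 to 1.24 times the median library and was lowest in TB IL-2nil replicate 2. The 5 T cell markers summed to 1138 to 1188 TPM in TB IL-2, 1788 to 1918 TPM in TB IL-2nil, 1023 to 1157 TPM in TB+ IL-2 and 1501 to 1785 TPM in TB+ IL-2nil. Among markers of other cells, 4 of 5 B cell markers were found and summed to 5.94 to 10.4 TPM in TB IL-2 and 23.2 to 29.6 TPM in TB IL-2nil, against 2.36 to 3.31 TPM in TB+ IL-2 and 5.49 to 12.7 TPM in TB+ IL-2nil. The CD8 T cell markers summed to 6.91 to 31.9 TPM, the myeloid markers, of which 3 of 5 passed the filter, to 1.74 to 4.88 TPM, and the NK cell markers, none of which passed it, to at most 0.303 TPM, with *Ncr1* listed at 0 in all 12 libraries. Short non-coding RNAs held from 16.6% of the summed FPKM, in TB IL-2 replicate 1, to 53.2%, in TB+ IL-2nil replicate 1. An alternative left these RNAs out. What part the differences in depth and in markers had in the results was not tested.

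Of the 6 genes, *Lrrc32* was much higher with IL-2 than after its withdrawal, and the other 5 did not pass the test without a block. After PMA/I in the presence of IL-2, *Lrrc32*, *Ikzf4* and *Nt5e* fell. After PMA/I without IL-2 only *Ikzf4* among the 6 passed the test, as lower. With the replicate number as a block, *Ikzf2* also passed, as lower with IL-2 than after its withdrawal (adjusted P = 0.0201, limma). The block also brought *Foxp3*, lower after PMA/I with IL-2, and *Lrrc32*, higher after PMA/I without IL-2, under the adjusted P threshold. With IL-2, the fall of *Lrrc32* passed in all 21 alternative analyses that kept the placement above, that of *Ikzf4* in 15 and that of *Nt5e* in 13. Without IL-2 *Nt5e* also went down (-0.97), and neither this nor the test of whether its response depended on IL-2 passed. A gene was called where its difference exceeded 3-fold and its adjusted P was under 0.05 (limma, with Benjamini-Hochberg adjustment over all genes tested). In TB IL-2 against TB IL-2nil, 1 of the 6 genes was called, as higher (7.42% of all genes tested, 4.69% as higher, and 39.6% at the adjusted P alone). In TB+ IL-2 against TB+ IL-2nil it was 0 of 6 in limma (3.62% of all genes tested, and 21.3% at the adjusted P alone), also at an unadjusted P under 0.05. That last count was 2 with the replicate number as a block, 1 without both libraries placed against their label and 1 without scaling between libraries. In TB+ IL-2 against TB IL-2, 3 of 6 were called, all lower (7.04% of all genes tested, 3.1% as lower), and 3 of 6 at the adjusted P alone (35.1%, and 23.3% as lower). In TB+ IL-2nil against TB IL-2nil, 1 of 6 was called, as lower (18.5% of all genes tested, 10.7% as lower, and 61.2% at the adjusted P alone, 20.1% as higher and 41.1% as lower). As the libraries are of bulk cultures, fewer cells of a type and less RNA per cell cannot be told apart in any of these values.

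**Figure D1:**
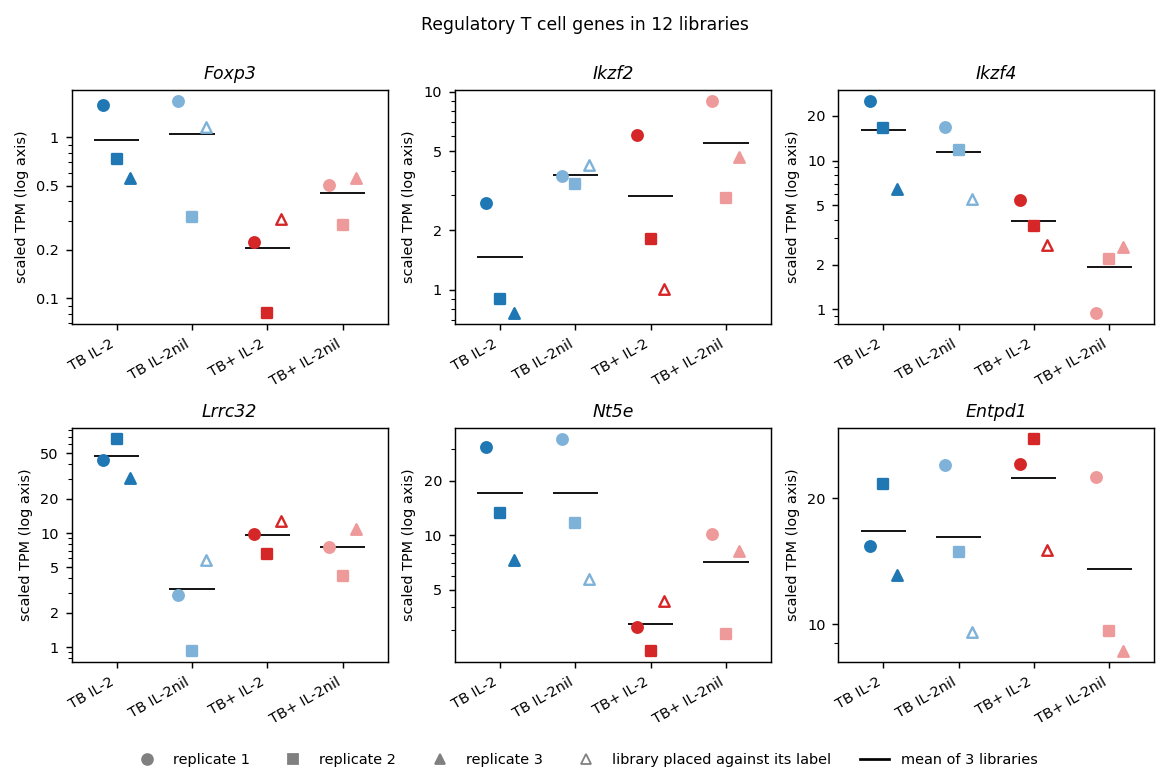
Level of each gene in scaled TPM on a logarithmic axis in the 12 libraries, by group, with marker shapes for replicate numbers, open triangles for the libraries placed against their label and lines for the mean of 3 libraries. *Lrrc32* is above 30 TPM in the 3 TB IL-2 libraries and below 13 TPM in all others, and *Ikzf4* and *Nt5e* are lower in the 3 TB+ IL-2 libraries than in any TB IL-2 library.

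*Foxp3* (ENSMUSG00000039521.5) is on the plus strand of chromosome X, between positions 7156802 and 7172369 of mm9 in the GENCODE M1 annotation, which gives all gene positions here. RefSeq lists its transcription from a pair of starts in GRCm38.p6, a later build whose positions do not correspond to those of mm9. The 250 bases before the second start are shown because they alone, of the 5 such windows found for *Foxp3*, *Nt5e* and *Entpd1*, hold a match to a STAT motif, the class of factor that IL-2 activates. They are at chrX:7580233-7580482 on the plus strand, with capitals for matches to the STAT motif TTCNNNGAA and the NFAT motif GGAAAA, searched on both strands, which here overlap.
*Foxp3*: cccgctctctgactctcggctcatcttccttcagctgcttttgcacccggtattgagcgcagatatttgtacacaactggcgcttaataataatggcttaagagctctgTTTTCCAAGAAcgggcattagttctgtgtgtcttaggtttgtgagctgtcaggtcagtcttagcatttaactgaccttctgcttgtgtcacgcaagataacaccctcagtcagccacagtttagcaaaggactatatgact
The STAT motif was found in 7.02% of 32851 promoter windows of this length and the NFAT motif in 20.4%. The AP-1 motif TGANTCA, found in 6.75%, was not in this window. The window before the first start of *Foxp3* held none of the 3 motifs, and whether a factor binds any match was not measured.

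*Foxp3* was near the lower limit of measurement, with a mean of 0.665 TPM over the 12 libraries, above only 6.92% of the genes tested, and it exceeded 1 TPM in 3 libraries. In TB IL-2 it was at 1.58, 0.731 and 0.561 TPM in replicates 1, 2 and 3 (0.958 ± 0.547, SD, n = 3). The TB IL-2nil libraries had 1.68, 0.317 and 1.15 TPM (1.05 ± 0.688, SD, n = 3), the last value being from the library labelled TB+ IL-2 replicate 3. These groups overlapped almost fully, and the lowest TB IL-2nil value came from the shallowest library. In TB+ IL-2 *Foxp3* was at 0.224, 0.0807 and 0.310 TPM (0.205 ± 0.116, SD, n = 3), the last value being from the library labelled TB IL-2nil replicate 3. The TB+ IL-2nil libraries had 0.502, 0.284 and 0.561 TPM (0.449 ± 0.146, SD, n = 3). Every TB+ IL-2 library was below every TB IL-2 library, while TB+ IL-2nil overlapped with TB IL-2nil. In the presence of IL-2, PMA/I gave a difference of -0.67 in log2(TPM + 1) (standard error (SE) 0.26, adjusted P = 0.0683, limma), which missed the threshold. It passed with the replicate number as a block (adjusted P = 0.0235, limma) and without TB IL-2nil replicate 2 (adjusted P = 0.0316, limma), and was -1.76 at a pseudocount of 0.1 (adjusted P = 0.0333, limma). The adjusted P ranged from 0.0235 to 0.242 over the 21 alternatives that kept the placement, and with the groups as labelled the difference was -0.43 (adjusted P = 0.637, limma). Without IL-2, PMA/I gave a difference of -0.44 (adjusted P = 0.162, limma), and was -0.73 (adjusted P = 0.0211, limma) when the shallowest library, TB IL-2nil replicate 2, was left out. Without both libraries placed against their label, PMA/I gave -0.73 with IL-2 and -0.38 without it (adjusted P = 0.111 and 0.334, limma). The difference between TB IL-2 and TB IL-2nil was -0.04, with a 95% interval from -0.62 to 0.54. In the order of mean levels, TB IL-2nil, TB IL-2, TB+ IL-2nil and TB+ IL-2, no neighbours differed beyond their spread (adjusted P = 0.926, 0.209 and 0.506, limma). The ends of this order did differ (TB+ IL-2 minus TB IL-2nil -0.71, adjusted P = 0.0346, limma).

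*Ikzf2* (chromosome 1, 69577788 to 69732534, minus strand) encodes Helios. It was at 2.73, 0.896 and 0.759 TPM in TB IL-2 (1.46 ± 1.10, SD, n = 3). After withdrawal of IL-2 it was at 3.74, 3.42 and 4.27 TPM (3.81 ± 0.429, SD, n = 3). All 3 libraries without IL-2 were above all 3 with IL-2, and they were the more even of the groups. In TB+ IL-2 *Ikzf2* was at 6.07, 1.80 and 1.01 TPM (2.96 ± 2.72, SD, n = 3). TB+ IL-2nil had 9.01, 2.92 and 4.66 TPM (5.53 ± 3.14, SD, n = 3). After PMA/I the groups overlapped, and replicate 1 stood far above the others in both. Within each replicate number TB+ IL-2 was below TB+ IL-2nil, a contrast that did not pass with the replicate number as a block. The difference between TB IL-2 and TB IL-2nil was -1.05 (SE 0.47, 95% interval -2.08 to -0.02, adjusted P = 0.0965, limma), which missed the threshold, and passed it with the replicate number as a block (adjusted P = 0.0201, limma). It also passed when TB IL-2 replicate 1 (-1.38, adjusted P = 0.0473, limma) or TB+ IL-2 replicate 1 (-1.05, adjusted P = 0.0428, limma) was left out. It was -0.98 without both libraries placed against their label (adjusted P = 0.161, limma) and -0.59 with the groups as labelled (adjusted P = 0.696, limma). The same contrast after PMA/I was -0.83 (adjusted P = 0.235, limma), -1.35 without TB+ IL-2 replicate 1 (adjusted P = 0.0449, limma) and -0.44 without both libraries (adjusted P = 0.621, limma). PMA/I itself gave differences of 0.56 with IL-2 and 0.34 without IL-2, neither of which passed the test (adjusted P = 0.383 and 0.550, limma), nor did they without both libraries (0.94 and 0.40, adjusted P = 0.184 and 0.522, limma). The mean levels ran from TB+ IL-2nil over TB IL-2nil and TB+ IL-2 to TB IL-2, with no neighbours that differed beyond their spread, while the ends of this order did differ (TB IL-2 minus TB+ IL-2nil -1.39, adjusted P = 0.0255, limma).

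*Ikzf4* (chromosome 10, 128067899 to 128083047, minus strand) encodes Eos, a corepressor partner of the FOXP3 protein. It was at 25.2, 16.4 and 6.47 TPM in TB IL-2 (16.0 ± 9.37, SD, n = 3). The TB IL-2nil libraries had 16.9, 11.8 and 5.54 TPM (11.4 ± 5.67, SD, n = 3). In both groups replicate 1 was the highest and replicate 3 the lowest, and the groups overlapped. Within each replicate number TB IL-2 was above TB IL-2nil, a contrast that did not pass with the replicate number as a block. After PMA/I it was at 5.40, 3.62 and 2.70 TPM in TB+ IL-2 (3.91 ± 1.37, SD, n = 3). The TB+ IL-2nil values were 0.942, 2.19 and 2.64 TPM (1.92 ± 0.880, SD, n = 3). Every stimulated library was below every unstimulated one, and the highest TB+ IL-2nil library was just below the lowest TB+ IL-2 library. *Ikzf4* fell after PMA/I in the presence of IL-2 (-1.66 in log2(TPM + 1), SE 0.48, 95% interval -2.70 to -0.61, adjusted P = 0.0200, limma). This fold, 3.15 on the log2(TPM + 1) scale, was just past the 3-fold threshold. The adjusted P was under 0.05 in 15 of 21 alternatives with the placement kept, from 0.00545 to 0.0811. It missed the threshold without TB IL-2 replicate 1 (-1.25, adjusted P = 0.0811, limma) or replicate 2 (-1.55, adjusted P = 0.0569, limma), or without TB+ IL-2 replicate 2 (-1.63, adjusted P = 0.0564, limma) or replicate 3 (-1.47, adjusted P = 0.0622, limma). The same held without the filter on low values (-1.53, adjusted P = 0.0596, limma) and with quantile normalization (-1.32, adjusted P = 0.0682, limma). Without both libraries placed against their label the difference was -1.47 (adjusted P = 0.0475, limma), under 3-fold and so not called, and it was -1.38 with the groups as labelled (adjusted P = 0.334, limma). *Ikzf4* also fell after PMA/I without IL-2 (-2.02, SE 0.48, 95% interval -3.06 to -0.97, adjusted P = 0.00352, limma), and this passed in all 21 alternatives with the placement kept (-2.48 to -1.49). It was -2.42 without both libraries (adjusted P = 0.00277, limma) and -1.74 with the groups as labelled (adjusted P = 0.0900, limma). Whether the size of the fall depended on IL-2 was tested as the interaction and did not pass (0.36, 95% interval -1.12 to 1.84, adjusted P = 0.781, limma), nor did it without both libraries (0.95, adjusted P = 0.494, limma). The contrasts of IL-2 were 0.40 before and 0.76 after PMA/I (TB IL-2 minus TB IL-2nil and TB+ IL-2 minus TB+ IL-2nil), neither of which passed (adjusted P = 0.534 and 0.282, limma). The latter was 0.94 without both libraries and did not pass there. In the order TB IL-2, TB IL-2nil, TB+ IL-2 and TB+ IL-2nil, the only neighbours that differed were TB IL-2nil and TB+ IL-2 (TB+ IL-2 minus TB IL-2nil -1.26, adjusted P = 0.0385, limma).

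*Lrrc32* (chromosome 7, 105642732 to 105650341, plus strand), the gene of GARP, had the widest range of the 6, with 73.0 times between its highest and lowest library. It was at 44.0, 67.1 and 30.1 TPM in TB IL-2 (47.1 ± 18.7, SD, n = 3). After withdrawal of IL-2 it was at 2.86, 0.919 and 5.83 TPM (3.20 ± 2.47, SD, n = 3). The lowest TB IL-2 library was several times above the highest TB IL-2nil library, so the groups were far apart. After PMA/I it was at 9.77, 6.58 and 12.7 TPM in TB+ IL-2 (9.68 ± 3.05, SD, n = 3). TB+ IL-2nil had 7.57, 4.19 and 10.9 TPM (7.54 ± 3.33, SD, n = 3). These groups overlapped, with both between the unstimulated groups in mean level, and TB+ IL-2 was below TB IL-2 in every library. Within each replicate number TB+ IL-2 was above TB+ IL-2nil, a contrast that did not pass with the replicate number as a block. *Lrrc32* was higher in TB IL-2 than in TB IL-2nil by 3.63 in log2(TPM + 1) (SE 0.47, 95% interval 2.60 to 4.65, adjusted P = 0.000275, limma), the 29th largest difference in either direction among all genes tested. It passed in all 21 alternatives with the placement kept, at 3.15 to 4.10, and the adjusted P was at most 0.00161. Without both libraries placed against their label the difference was 4.06 (adjusted P = 0.000883, limma). With the groups as labelled TB IL-2nil had a mean of 5.49 ± 6.31 TPM (SD, n = 3) and the difference was 3.29 (adjusted P = 0.0655, limma), which missed the threshold. In this contrast, the groups of *Lrrc32* and of *Ikzf2* did not overlap, higher for the former (22.8% of all genes tested) and lower for the latter (30.4%).

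In the presence of IL-2, *Lrrc32* fell after PMA/I (-2.14, SE 0.47, 95% interval -3.16 to -1.11, adjusted P = 0.00504, limma), and this passed in all 21 alternatives with the placement kept (-2.41 to -1.85). It was -2.33 without both libraries (adjusted P = 0.00510, limma) and -2.47 with the groups as labelled (adjusted P = 0.111, limma). Without IL-2, PMA/I gave 1.13 (SE 0.47, 95% interval 0.10 to 2.15, adjusted P = 0.0544, limma), which just missed the threshold. It passed with the replicate number as a block (adjusted P = 0.0419, limma), without both libraries (1.56, adjusted P = 0.0158, limma) and with quantile normalization (1.68, adjusted P = 0.00658, limma). The same held with the short non-coding RNAs left out. It also passed without TB+ IL-2nil replicate 2 (1.45, adjusted P = 0.0314, limma) or the library placed in TB IL-2nil (1.57, adjusted P = 0.0132, limma), and with the groups as labelled it was 0.79 (adjusted P = 0.373, limma). The difference between the responses to PMA/I with and without IL-2, tested as the interaction, was -3.27 (SE 0.66, 95% interval -4.72 to -1.82, adjusted P = 0.0266, limma). *Lrrc32* was the only one of the 6 genes to pass this test (4.23% of all genes tested passed it, 2.66% in this direction). The interaction stayed under 0.05 in 12 of 21 alternatives with the placement kept, from -3.90 to -2.79 and with adjusted P from 0.0118 to 0.115. It was lost when TB IL-2 replicate 2, TB IL-2nil replicate 2, TB+ IL-2nil replicate 1 or any TB+ IL-2 library was left out (-3.46 to -2.79, adjusted P = 0.0552 to 0.0697, limma). It was also lost without both libraries (-3.90, adjusted P = 0.0583, limma), where 4 genes in all passed, at a pseudocount of 0.1 (-3.69, adjusted P = 0.0554, limma), without scaling between libraries (-2.88, adjusted P = 0.115, limma) and with the groups as labelled (adjusted P = 0.914, limma), where 0 genes passed. TB+ IL-2 and TB+ IL-2nil did not differ beyond their spread (0.36, 95% interval -0.66 to 1.39, adjusted P = 0.624, limma, and 0.16 without both libraries, adjusted P = 0.854, limma). TB+ IL-2 was above TB IL-2nil (1.49, adjusted P = 0.0163, limma).

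**Figure D2:**
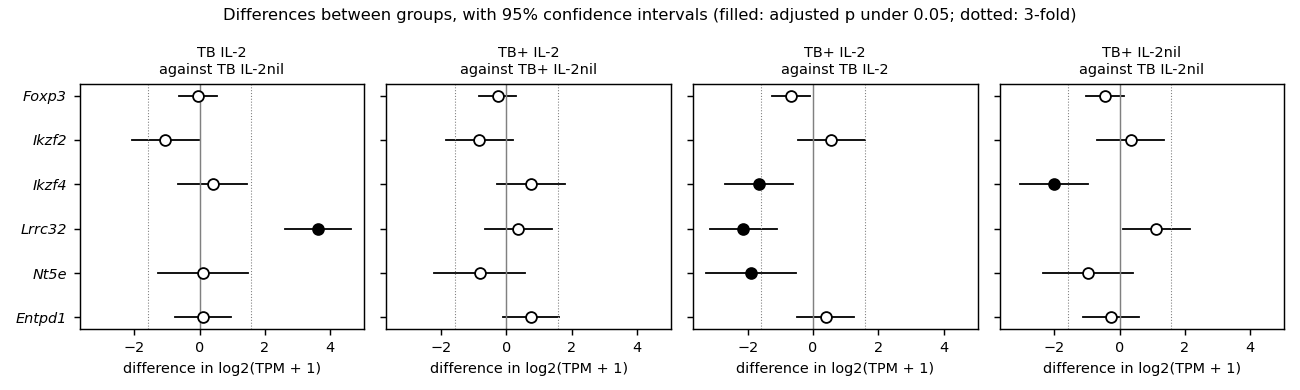
Difference in log2(TPM + 1) for each gene in 4 comparisons, first group minus second, with 95% confidence intervals from limma, filled points for an adjusted P under 0.05 and dotted lines at 3-fold. *Lrrc32* is at 3.63 in TB IL-2 against TB IL-2nil and at -2.14 in TB+ IL-2 against TB IL-2, and no gene is filled in TB+ IL-2 against TB+ IL-2nil.

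*Nt5e* (chromosome 9, 88222447 to 88266927, plus strand) encodes CD73, which makes adenosine from AMP. The 250 bases before its RefSeq start, at chr9:88327359-88327608 on the plus strand of GRCm38.p6, are shown because *Nt5e* is the member with a listed promoter that was called after PMA/I. They hold no match to the AP-1, NFAT or STAT motif, so no base is in capitals, and nothing follows from this for any factor.
*Nt5e*: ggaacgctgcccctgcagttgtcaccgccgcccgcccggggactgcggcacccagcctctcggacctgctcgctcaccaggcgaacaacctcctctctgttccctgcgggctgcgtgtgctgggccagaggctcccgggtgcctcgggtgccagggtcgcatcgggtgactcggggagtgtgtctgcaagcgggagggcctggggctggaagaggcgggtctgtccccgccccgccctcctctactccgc
*Nt5e* was at 30.9, 13.2 and 7.28 TPM in TB IL-2 (17.1 ± 12.3, SD, n = 3). The TB IL-2nil libraries had 34.2, 11.7 and 5.73 TPM (17.2 ± 15.0, SD, n = 3). Libraries of the same replicate number were close in these groups, which overlapped fully, and replicate 1 was the highest in both. In TB+ IL-2 it was at 3.12, 2.29 and 4.37 TPM (3.26 ± 1.04, SD, n = 3). The TB+ IL-2nil libraries had 10.2, 2.84 and 8.24 TPM (7.10 ± 3.82, SD, n = 3). All 3 TB+ IL-2 libraries were below all TB IL-2 libraries, and the TB+ IL-2nil libraries lay across the range of the other groups. *Nt5e* fell after PMA/I in the presence of IL-2 (-1.90, SE 0.63, 95% interval -3.28 to -0.51, adjusted P = 0.0372, limma). The adjusted P was under 0.05 in 13 of 21 alternatives with the placement kept, from -2.35 to -1.37 and with adjusted P from 0.0124 to 0.141. It missed the threshold without TB IL-2 replicate 1 (-1.37, adjusted P = 0.141, limma) or replicate 2 (-1.96, adjusted P = 0.0676, limma), and without any one TB+ IL-2 library (-2.07 to -1.72, adjusted P = 0.0520 to 0.111, limma). It also did so without the filter (-1.77, adjusted P = 0.0947, limma), without scaling between libraries (-1.97, adjusted P = 0.0528, limma) and with quantile normalization (-1.57, adjusted P = 0.0987, limma). It was -2.07 without both libraries placed against their label (adjusted P = 0.0382, limma) and -1.79 with the groups as labelled (adjusted P = 0.293, limma). Without IL-2 the difference after PMA/I was -0.97 (95% interval -2.36 to 0.41, adjusted P = 0.200, limma), and the interaction did not pass (-0.92, 95% interval -2.88 to 1.04, adjusted P = 0.566, limma). Neither contrast of IL-2 passed, at 0.11 before PMA/I (95% interval -1.28 to 1.49, adjusted P = 0.918, limma) and -0.82 after it (95% interval -2.20 to 0.57, adjusted P = 0.385, limma). Without both libraries these 4 values did not pass either, the nearest being PMA/I without IL-2 (-1.53, adjusted P = 0.0733, limma), and the interaction was -0.55 (adjusted P = 0.783, limma). In the order of mean levels, TB IL-2nil, TB IL-2, TB+ IL-2nil and TB+ IL-2, no neighbours differed beyond their spread, while TB+ IL-2 differed from both unstimulated groups (TB+ IL-2 minus TB IL-2nil -1.79, adjusted P = 0.0284, limma). Over the 6 genes, TB+ IL-2 and TB IL-2 did not overlap for *Foxp3*, *Ikzf4*, *Lrrc32* and *Nt5e*, lower in all 4 (35.1% of all genes tested). TB+ IL-2nil and TB IL-2nil did not overlap for *Ikzf4* alone, lower (42.3%), and TB+ IL-2 and TB+ IL-2nil for *Ikzf4* alone, higher (18.9%).

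*Entpd1* (chromosome 19, 40686856 to 40816092, plus strand) encodes CD39, which acts before CD73. It was at 15.3, 21.6 and 13.1 TPM in TB IL-2 (16.7 ± 4.39, SD, n = 3). Without IL-2 it was at 24.0, 14.9 and 9.60 TPM (16.2 ± 7.29, SD, n = 3). The groups overlapped, and replicate 3 was the lowest in each. In TB+ IL-2 it was at 24.1, 27.7 and 15.0 TPM (22.3 ± 6.55, SD, n = 3). The TB+ IL-2nil values were 22.5, 9.65 and 8.62 TPM (13.6 ± 7.71, SD, n = 3). These groups overlapped too, although TB+ IL-2 was above TB+ IL-2nil within each replicate number. *Entpd1* had the narrowest range of the 6 genes, 3.21 times between its extremes. No comparison passed the test. The difference was 0.10 for TB IL-2 minus TB IL-2nil (95% interval -0.77 to 0.97, adjusted P = 0.866, limma), and 0.76 for TB+ IL-2 minus TB+ IL-2nil (95% interval -0.11 to 1.62, adjusted P = 0.200, limma). PMA/I gave 0.38 with IL-2 (95% interval -0.49 to 1.25, adjusted P = 0.482, limma) and -0.27 without it (95% interval -1.14 to 0.60, adjusted P = 0.571, limma). Without both libraries none of these passed either, the nearest being TB+ IL-2 minus TB+ IL-2nil (1.01, adjusted P = 0.139, limma). No neighbours in the order TB+ IL-2, TB IL-2, TB IL-2nil and TB+ IL-2nil differed beyond their spread. In the presence of IL-2 after PMA/I, the mean level of *Entpd1* was thus 22.3 TPM beside 3.26 TPM for *Nt5e*, while both were between 16 and 18 TPM in TB IL-2 and in TB IL-2nil.

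**Figure D3:**
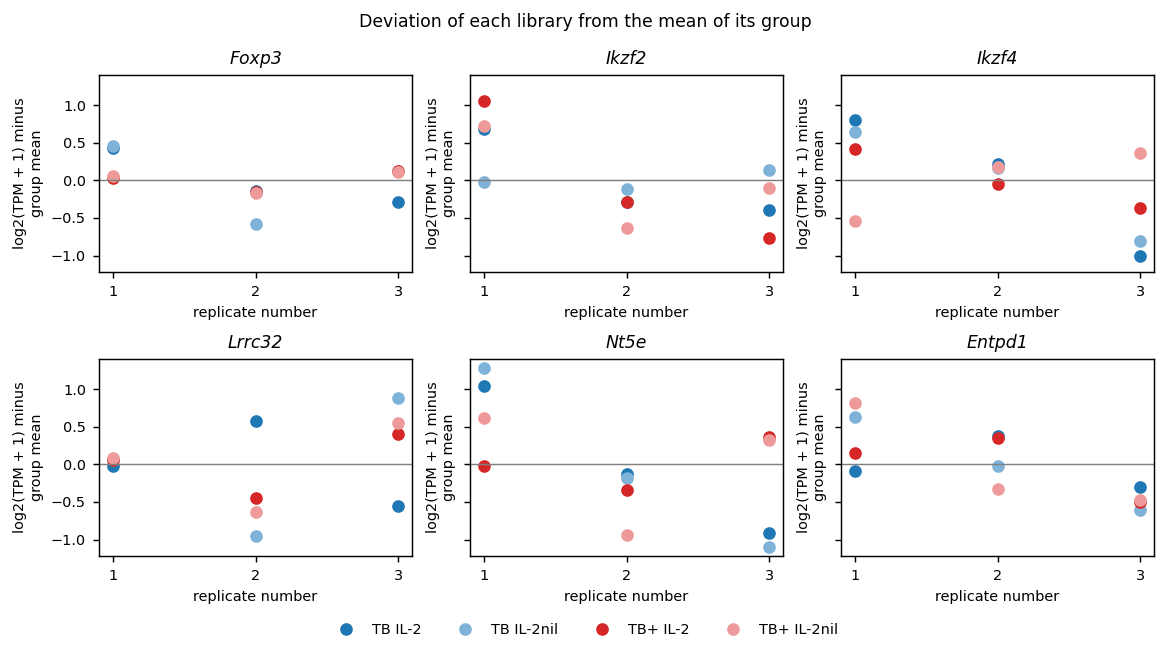
Deviation of each library from the mean of its group in log2(TPM + 1), by replicate number and coloured by group, with the 2 libraries placed against their label in the group they were placed in. *Entpd1* is below its group mean in all 4 replicate 3 libraries, and *Foxp3* is below it in all 4 replicate 2 libraries.

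Within groups, several of the 6 genes deviated in the same direction in libraries of the same replicate number. This was not particular to them, as deviations over all genes tested correlated in all 18 pairs of such libraries (0.101 to 0.531). *Foxp3* was below the mean of its group in replicate 2 of all 4 groups, by 0.14 to 0.58 in log2(TPM + 1). *Entpd1* was below it in replicate 3 of all 4 groups, by 0.30 to 0.61. *Ikzf2* was highest in replicate 1 in 3 of the 4 groups, with deviations of 0.69 to 1.05, and *Ikzf4* was highest in replicate 1 in 3 of 4 groups and lowest there in TB+ IL-2nil (-0.54). *Nt5e* deviated by 1.04 and 1.29 in replicate 1 of the unstimulated groups. *Lrrc32* in TB IL-2 was the exception to its own pattern, since replicate 2 was the highest there (0.58) and the lowest in the other 3 groups (-0.95 to -0.45). Neither the labels nor the methods say what libraries of the same number share.

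Each gene was also set beside all genes tested by Pearson correlation of log2(TPM + 1) over the 12 libraries, which share their groups and replicate numbers and so are not independent points. The genes named were picked as the highest among all genes tested, so their correlations are high by selection. For *Foxp3*, *Il17c* (0.960), *Lrrc71* (0.913) and *Dok4* (0.905) were the most alike. For *Ikzf2* they were *Arhgap31* (0.941), *4930519G04Rik* (0.936) and *H2-K1* (0.932), the last of which encodes a classical MHC class I heavy chain. For *Ikzf4* they included *Senp8* (0.961) and *Pla2g15* (0.953). *Lrrc32* was most like *Snx3* (0.934), a sorting nexin, *Arhgdia* (0.909) and *Mrps17* (0.889). *Nt5e* was most like *Qser1* (0.910), *Osbpl2* (0.908) and *Trappc10* (0.898), and *Entpd1*, with the weakest matches, was most like *Trat1* (0.816), *Kcnab1* (0.810) and *Nfe2l2* (0.807). Among the 6 genes themselves the closest pair was *Foxp3* and *Nt5e* (0.835, and 0.657 for the deviations from the group means). Over the libraries, *Lrrc32* was at -0.49 with *Ikzf2* and between 0.05 and 0.27 with the others, while its deviations from the group means were at 0.592 with those of *Foxp3*.

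The genes that work with these 6 were described from 5 lists. In TB IL-2 against TB IL-2nil, of 23 surface and effector genes of regulatory T cells that were tested, 9 were higher and 5 were lower at the adjusted P (limma; 17.3% and 22.3% of all genes tested), with a median difference of 0.53 against -0.13 over all genes. The most increased were *Socs2*, a feedback inhibitor of cytokine signaling (2.74, adjusted P = 0.000358, limma), *Il2ra*, the IL-2 receptor alpha chain (2.45, adjusted P = 0.000476, limma), and *Tnfrsf9*, the costimulatory receptor 4-1BB (2.25, adjusted P = 0.00115, limma). The checkpoint receptor gene *Ctla4* was lower (-2.20, adjusted P = 0.0186, limma), as was *Nrp1*, which encodes neuropilin-1 (-2.04, adjusted P = 0.0207, limma). *Ctla4* missed the threshold without TB IL-2 replicate 1 or 2 or TB IL-2nil replicate 2 or 3 (-2.17 to -1.76, adjusted P = 0.0518 to 0.0682, limma), and *Nrp1* did so without TB IL-2 replicate 2 or 3 or TB IL-2nil replicate 1 or 2 (at most -1.65, adjusted P = 0.0583 to 0.0787, limma). Genes of this list thus went both ways, with *Ctla4* at 20.3 ± 9.85 TPM in TB IL-2 and 105 ± 63.6 TPM in TB IL-2nil (SD, n = 3). After PMA/I, 1 of the 23 was higher and 1 lower between TB+ IL-2 and TB+ IL-2nil (12.9% and 8.4% of all genes tested, median -0.21 against -0.04 over all genes), and with the replicate number as a block 2 were higher and 5 lower.

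Of 27 genes that regulate *Foxp3* or whose proteins act with its product, 3 were higher and 11 lower in TB IL-2 than in TB IL-2nil (17.3% and 22.3% of all genes tested, median -0.44). *Uhrf1* and *Dnmt1*, which encode the maintenance machinery of DNA methylation and are high in dividing cells, were higher by 3.74 and 2.34 (adjusted P = 0.000146 and 0.000136, limma), and the repressor gene *Bach2* was lower (-1.75, adjusted P = 0.000710, limma). After PMA/I, 2 were higher and 11 lower between TB+ IL-2 and TB+ IL-2nil (12.9% and 8.4% of all genes tested, median -0.58), the higher ones being *Uhrf1* (3.58, adjusted P = 0.000409, limma) and *Dnmt1* (2.88, adjusted P = 8.93e-05, limma). Without scaling between libraries, which moved the median of all genes from -0.04 to 0.23, 2 were higher and 0 lower, with 1 lower at an unadjusted P under 0.05 in limma. Among the other IKAROS family genes, *Ikzf3*, encoding Aiolos, was lower with IL-2 both before and after PMA/I (-2.49 and -1.44, adjusted P = 0.000192 and 0.00696, limma). *Ikzf1*, encoding Ikaros, was lower before PMA/I (-0.47, adjusted P = 0.0341, limma) and *Ikzf5* after it (-0.68, adjusted P = 0.00471, limma), while the other contrasts were -0.33 for *Ikzf1* and -0.24 for *Ikzf5* (adjusted P = 0.163 and 0.157, limma). *Ikzf1* missed the threshold without TB IL-2 replicate 2 or 3 or TB IL-2nil replicate 1 or 2 (-0.50 to -0.39, adjusted P = 0.0673 to 0.126, limma). Without scaling between libraries it also did so (adjusted P = 0.221, limma), as did *Ikzf3* (-1.05, adjusted P = 0.120, limma) and *Ikzf5* (-0.30, adjusted P = 0.627, limma) after PMA/I. The level of *Ikzf1* was 201 ± 21.5 TPM in TB IL-2 and that of *Ikzf3* 145 ± 36.3 TPM in TB IL-2nil (SD, n = 3), while no library had more than 25.2 TPM of *Ikzf4* or 9.01 TPM of *Ikzf2*.

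Around *Entpd1* and *Nt5e*, 13 of 17 other genes of extracellular ATP and adenosine were tested, of which 2 were higher and 5 lower in TB IL-2 than in TB IL-2nil (median -0.26), where 17.3% and 22.3% of all genes tested were. The nucleoside transporter gene *Slc29a1* was higher (1.72, adjusted P = 0.00299, limma), and its difference after PMA/I did not pass (0.21, adjusted P = 0.703, limma). After PMA/I, 2 were higher and 4 lower between TB+ IL-2 and TB+ IL-2nil (median -0.59), where 12.9% and 8.4% of all genes tested were. Around *Lrrc32*, 10 of 15 genes of TGF-beta presentation and signaling were tested, of which 2 were higher and 2 lower in TB IL-2 than in TB IL-2nil (median 0.01), and 1 higher and 4 lower between TB+ IL-2 and TB+ IL-2nil (median -0.56), beside the same shares of all genes. *Smad7*, an inhibitor of TGF-beta signaling, was lower with IL-2 before PMA/I (-1.90, adjusted P = 0.00728, limma). Its difference after PMA/I was -1.41 (adjusted P = 0.0461, limma), under 3-fold. With the groups as labelled, 0 of the 75 genes tested from the 5 lists passed in limma in either contrast of IL-2, with 15 before and 16 after PMA/I at an unadjusted P under 0.05. Without both libraries placed against their label, 33 of the 75 passed before PMA/I and 12 after it (32.3% and 9.71% of all genes tested), beside 40 and 28 with them (39.6% and 21.3%). Leaving *Smad7* after PMA/I aside, the genes of the lists named here as higher or lower passed without both libraries too, with an adjusted P of at most 0.0418 (limma).

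**Figure D4:**
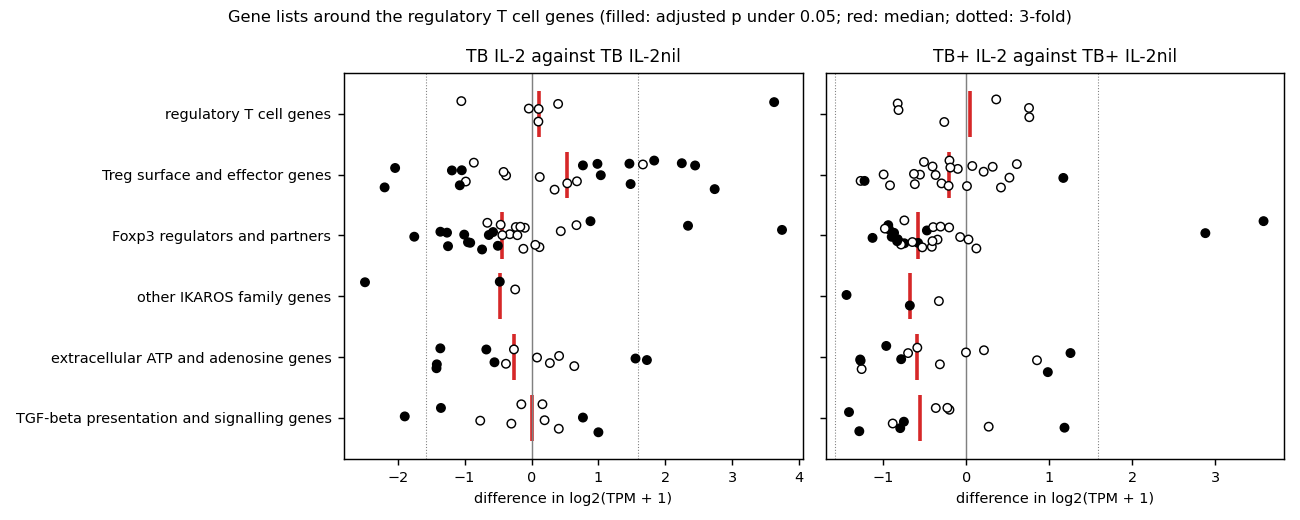
Difference in log2(TPM + 1) of each tested gene of 6 lists, for TB IL-2 minus TB IL-2nil and TB+ IL-2 minus TB+ IL-2nil, with filled points for an adjusted P under 0.05 in limma, red lines at the list's median and dotted lines at 3-fold; vertical scatter has no meaning. *Lrrc32* stands at 3.63 in the top row of the left panel, where the median of the surface and effector genes is 0.53.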

How the data were processed

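The 12 RNA-Seq libraries were made from rRNA-depleted RNA with a directional kit. Whether stimulated and unstimulated libraries of a replicate number came from separate cultures is not stated in the methods. Trimming (Trimmomatic 0.32), alignment to mm9 (HISAT2 2.1.0) and quantification of RefSeq genes (StringTie 1.3.3) were done by the authors, who deposited FPKM values, which sum to 193815 to 420487 per library, are not normalized between libraries and come without read counts. The methods name TPM, which the tests had assumed. The counts behind a value are thus unknown, and no counting interval is given.

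For this report values were converted to TPM (1000000 per library), filtered at 1 TPM or less in every library, and scaled to a common 75th percentile. A model of 4 group means without block or trend was fitted to log2(TPM + 1) by limma 3.58.1 under R 4.3.3 (8 residual degrees of freedom), which understates changes of low genes. P-values were adjusted by Benjamini-Hochberg over 12442 genes, and tests were two-sided. The fit was tested on simulated data. Groups were those of the labels, except for the 2 libraries named above. The alternatives were 10 other settings and the omission of each of the 12 libraries. The replicate numbers of the labels paired the samples, with all 18 correlations of deviations over 0.1 (0.101 to 0.531), so blocked values are given where they cross the adjusted P threshold. Nothing in the labels says that replicates came from separate mice, and P-values measure the spread between these libraries.

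The 6 genes and all lists were chosen with earlier results of these data known. Named genes were the 6, *Il2*, up to 3 genes per list and direction with the largest called differences in both IL-2 contrasts, the other IKAROS genes, and the 3 genes most correlated with each of the 6, of which 1 is not reported here. Promoter sequences are from RefSeq (GRCm38.p6) and were found for 3 of the 6 genes, not for *Ikzf2*, *Ikzf4* and *Lrrc32*. Other steps ran in Python 3.11.15 (numpy 2.4.6, pandas 2.3.3, matplotlib 3.10.9).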

Additional observations from a re-analysis of the deposited data

Results flagged for a closer look

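The response of *Lrrc32* to PMA/I differed between cultures with and without IL-2, by -3.27 in log2(TPM + 1) (SE 0.66, adjusted P = 0.0266, limma), and was marked because this difference was itself tested. With IL-2, its level was 47.1 ± 18.7 TPM before and 9.68 ± 3.05 TPM after PMA/I (SD, n = 3), lower in all 3 stimulated libraries than in any unstimulated one. Without IL-2, it was 3.20 ± 2.47 TPM before and 7.54 ± 3.33 TPM after PMA/I (SD, n = 3), with overlap between the groups. B cell markers were highest in TB IL-2nil, where *Lrrc32* was lowest, at 23.2 to 29.6 TPM summed over 4 genes, and their part in this result was not tested.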

How the results depend on the processing

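With the groups as labelled, the number of the 6 genes called by limma was 0 in every comparison. At an unadjusted P under 0.05 it was then 1 in TB IL-2 against TB IL-2nil, 0 in TB+ IL-2 against TB+ IL-2nil, 3 in TB+ IL-2 against TB IL-2, 1 in TB+ IL-2nil against TB IL-2nil and 1 in the interaction. In TB+ IL-2 against TB IL-2, 1 gene was called without the filter and 1 with quantile normalization, instead of 3, 2 without both libraries placed against their label and 2 without scaling, and 1 to 3 when each library was left out, the lowest count being reached without TB IL-2 replicate 1 or 2 or TB+ IL-2 replicate 2 or 3. At the adjusted P alone, the range was 1 to 4. In the interaction, 0 genes were called without both libraries placed against their label, at a pseudocount of 0.1 and without scaling, with 1 gene at an unadjusted P under 0.05 in limma each time, and 0 to 1 when each library was left out.

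Signs turned for differences that had not passed the test. For TB IL-2 minus TB IL-2nil, *Foxp3* was 0.198 as labelled, 0.0219 without both libraries and 0.0931 with quantile normalization, *Entpd1* was -0.10 as labelled and -0.20 without both libraries, and without both libraries *Ikzf4* was -0.00871 and *Nt5e* -0.45. In TB+ IL-2nil against TB IL-2nil, *Ikzf2* was -0.12 without scaling and *Entpd1* 0.0802 with quantile normalization, and in the interaction *Ikzf2* was -0.0933 with quantile normalization. When each library was left out, the ranges in TB IL-2 against TB IL-2nil were -0.33 to 0.18 for *Foxp3*, -0.00783 to 0.90 for *Ikzf4*, -0.45 to 0.75 for *Nt5e* and -0.20 to 0.42 for *Entpd1*. In TB+ IL-2nil against TB IL-2nil they were -0.0261 to 0.65 for *Ikzf2* and -0.68 to 0.0421 for *Entpd1*, and in the interaction -0.44 to 0.0633 for *Foxp3*, -0.30 to 0.60 for *Ikzf2* and -0.14 to 0.77 for *Ikzf4*. Of 660 values of single genes under these settings, 591 kept their sign and side of the threshold, 29 no longer passed the adjusted P, 14 newly passed it and 26 changed sign. The cause was not tested.

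The replicate number as a block left the counts past 3-fold as they were, and brought under the adjusted P threshold *Ikzf2* in TB IL-2 against TB IL-2nil (adjusted P = 0.0201, limma), *Foxp3* in TB+ IL-2 against TB IL-2 (0.0235) and *Lrrc32* in TB+ IL-2nil against TB IL-2nil (0.0419), while no other difference of the 6 genes crossed it. It raised the genes passing the interaction from 4.23% to 11.9% of all tested. Without scaling, 11.5% of all genes were higher and 0.466% lower in TB+ IL-2 against TB+ IL-2nil, beside 12.9% and 8.4%, and 10.5% higher and 49.1% lower in TB+ IL-2nil against TB IL-2nil, beside 20.1% and 41.1%. The median of all genes then moved from -0.38 to -0.78 in TB+ IL-2nil against TB IL-2nil and from 0.16 to 0.51 in the interaction. With quantile normalization it was -0.14 in TB+ IL-2nil against TB IL-2nil. With 3 libraries a group and no read counts, precision rests on the spread between libraries alone.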

Other observations

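After PMA/I in the presence of IL-2, 7 of 23 surface and effector genes of regulatory T cells were higher and 1 was lower in limma (11.8% and 23.3% of all genes tested), at a median of 0.48 where that of all genes was -0.22. Without IL-2, 11 of the 23 were higher and 0 lower in limma, also at an unadjusted P under 0.05 (20.1% and 41.1% of all genes tested), at a median of 0.61 where that of all genes was -0.38. The counts were 8 higher and 1 lower with IL-2, and 8 higher and 1 lower without it, when both libraries placed against their label were left out. With the groups as labelled they were 0 higher and 1 lower with IL-2, and 0 and 0 without it in limma, where 6 were higher and 1 lower at an unadjusted P under 0.05.

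Of the 27 genes around *Foxp3*, 10 were higher and 7 lower after PMA/I with IL-2, and 12 higher and 8 lower without it, at medians of 0.01 and 0.37. Of all genes tested, 11.8% were higher and 23.3% lower with IL-2, and 20.1% and 41.1% without it, which also stand beside the counts that follow. Without scaling between libraries the medians were -0.07 and -0.17. Of the 13 genes of extracellular ATP and adenosine, 3 were higher and 3 lower with IL-2, and 6 higher and 4 lower without it. Of the 10 TGF-beta genes, 4 were higher and 1 lower after PMA/I both with and without IL-2.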
